A study of Mus musculus with 38 samples.

Results

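GeoMx segments stained for pan-cytokeratin (PanCK), which marks the bile duct epithelium, were compared between Trail Δmye and WT mice fed the DDC diet. The comparison was defined by the segment labels alone, and it held 9 of the 38 segments of the series, 5 from Trail Δmye mice (regions of interest, ROIs, 032, 033, 034, 035 and 036) and 4 from WT mice (ROIs 007, 009, 011 and 013). All 9 lay in periportal ROIs that the methods place around the ductular reaction. In Trail Δmye mice (labelled Trail.mye) the floxed Tnfsf10 gene, which encodes the death ligand TRAIL, is deleted by a Cre recombinase expressed from Lyz2, so that the deletion targets myeloid cells and not the epithelium measured here. The targeted allele came from C57BL/6N, and the FRT-flanked cassette was removed by crossing to a Flp deleter line. The methods name WT and floxed littermates without Cre as controls, and the control segments used here are labelled WT. The mice of the 9 segments received DDC (3,5-diethoxycarbonyl-1,4-dihydrocollidine) for rounds of 5 days separated by 3 days of chow over 21 days, and livers were taken on day 22. In the study's feeding scheme control mice received a control diet in place of DDC. The methods give mice of 6 to 8 weeks, matched for age and sex. Control-diet PanCK segments (3 WT and 4 Trail Δmye) and the IBA1-positive macrophage segments of the same DDC-fed ROIs (4 WT and 5 Trail Δmye) were used for comparison. The labels do not tie a segment to an animal. Segments of a group may therefore share an animal, and p-values over segments are then too small.

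DDC blocks heme synthesis, and the porphyrin that accumulates plugs small bile ducts, so that the diet gives a sclerosing, cholestatic injury. Ductular reactive cells, an expanded biliary epithelium that expresses cytokeratins 7 and 19, Epcam, Sox9 and Spp1, then spread from the portal tract among the neighbouring hepatocytes and secrete chemokines that draw myeloid cells. TRAIL binds a death receptor, Tnfrsf10b in the mouse, and can trigger caspase 8 through the adaptor Fadd, or signal through NF-kB. The question put to these segments is how the epithelial transcriptome of a DDC-injured portal tract differs when myeloid cells lack TRAIL.

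Depth separated the genotypes. Total counts were 46676 to 61665 in the WT segments and 172180 to 836971 in the Trail Δmye segments, a 5.79-fold difference of the medians, and the ranges did not overlap. The deposited counts have a lowest value of 1, and 21.8% to 36.3% of genes stood at that value in the WT segments against 0.578% or less in the Trail Δmye segments. After scaling to the upper quartile (Q3), 1 count was worth 2.10 to 2.63 units in WT and 0.131 to 0.700 units in Trail Δmye segments. ROI 035 stood apart within its group. Its total of 836971 lay above the 172180 to 319206 of the other 4 segments. Its 75th percentile was 1.86 times its negative probe, which matches no transcript, against 4.86 to 7.52 times in the other 4. On the Q3 scale the negative probe stood at 5.66 in ROI 035, at 1.40 to 2.16 in the other Trail Δmye segments and at 2.61 to 2.85 in WT. Values without ROI 035 are given below beside named genes whose call changed. Depth and genotype cannot be told apart in this comparison.

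The markers of the biliary label were present in both genotypes. Krt19, a cytokeratin of bile duct cells, averaged 54.9 ± 7.57 Q3-normalized counts (SD, n = 4) in WT and 50.1 ± 10.9 (SD, n = 5) in Trail Δmye PanCK segments, against 6.57 and 6.26 in the IBA1 segments of the same ROIs. Epcam, an epithelial adhesion molecule, averaged 98.3 ± 33.4 in WT and 82.3 ± 20.3 in Trail Δmye, against 8.75 and 9.71 in the IBA1 segments. Neither passed the test between genotypes (log2 fold change -0.11 with SE 0.30 and adjusted p = 0.975 for Krt19 and -0.25 with SE 0.29 and adjusted p = 0.857 for Epcam). The segments also carried hepatocyte transcripts. Alb, the hepatocyte's main secreted protein, stood at 1153 to 2027 in WT and at 603 to 2301 in Trail Δmye segments, and its log2 fold change was -0.05 with SE 0.28 (adjusted p = 1) and 0.15 without ROI 035.

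Of 10547 genes tested, 16 passed the edgeR quasi-likelihood test at an adjusted p under 0.05, which is 0.152% of genes. Of these, 10 were higher in Trail Δmye (0.0948% of genes) and 6 were lower (0.0569%). The 10 were Nnt, Klf10, Nnmt, Sds, Hpd, Mat1a, Bhmt, Gnmt, Gstm3 and Mmut, and the 6 were Mup13, Sdr39u1, Mid1, Idi1, Sftpd and Fabp5. In 14 of the 16 the segments of the genotypes did not overlap, and Gnmt and Mmut were the exceptions. Over all genes, segments were apart with Trail Δmye higher in 4.67% and lower in 0.777%. An unadjusted p under 0.05 was met by 7.25% of genes with Trail Δmye higher and by 1.98% with it lower. The genes tested had a median log2 fold change of 0.21. The split between directions changed with the scaling. With TMM factors the all-gene median was -0.05 and 1 gene was higher and 16 lower, and with DESeq2 the median was -0.10 with 3 higher and 29 lower. Each of the 16 genes kept its direction under TMM, DESeq2 and with every segment left out in turn, but 7 of the 16 were called with TMM factors and 8 with DESeq2. Because a segment is a small patch of tissue, fewer cells of a type and less RNA per cell cannot be told apart for any gene below.

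**Figure D1:**
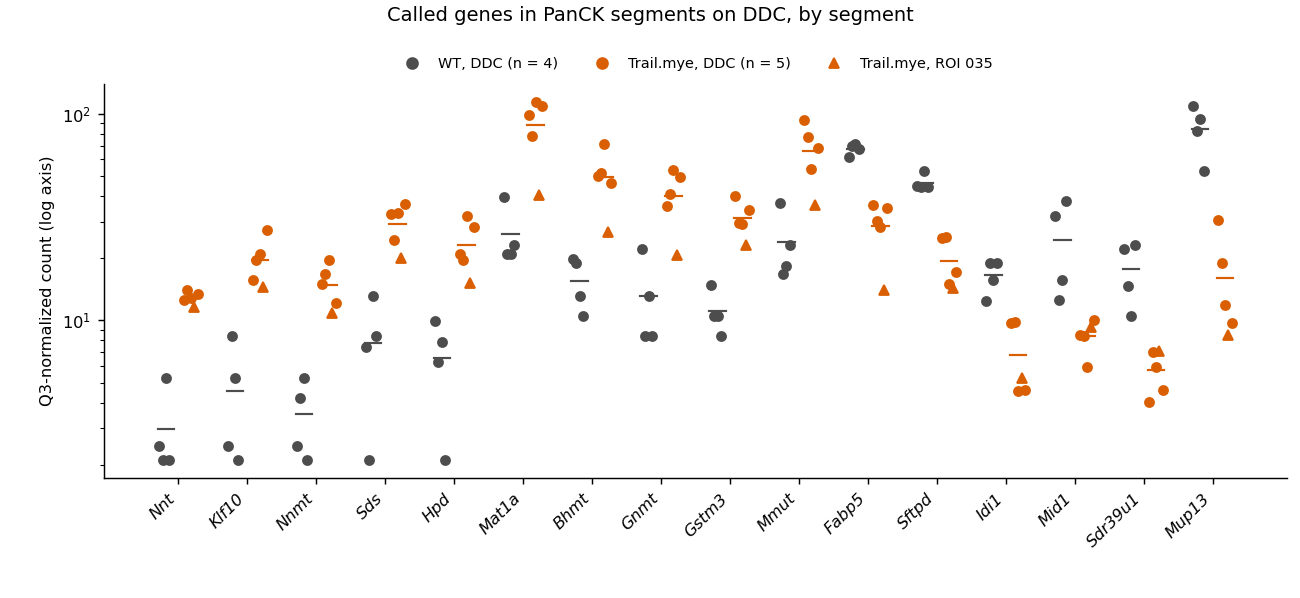
Q3-normalized counts (log axis) of the 16 called genes in each PanCK segment on DDC, 4 WT (grey) and 5 Trail Δmye (orange, ROI 035 as a triangle), with a bar at the group mean. The genotypes overlap only for Gnmt and Mmut, where Trail Δmye ROI 035 lies below WT ROI 007.

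Among the 10 genes that rose, 4 act on methyl groups and methionine. Mat1a makes S-adenosylmethionine, the methyl donor, from methionine in the adult hepatocyte. Its Q3-normalized counts were 39.5, 21.0, 21.0 and 23.1 in the WT segments (ROIs 007, 009, 011 and 013) and 98.6, 77.7, 114, 40.6 and 108 in the Trail Δmye segments (ROIs 032 to 036). The highest WT segment, ROI 007, lay just below ROI 035, the lowest Trail Δmye segment. Mat1a was 3.41-fold higher (log2 fold change 1.77, SE 0.35, adjusted p = 0.00523). Bhmt remethylates homocysteine to methionine with betaine. It stood at 19.8, 18.9, 13.1 and 10.5 in WT and at 49.7, 51.8, 71.2, 26.8 and 46.2 in Trail Δmye, 3.16-fold higher (log2 fold change 1.66, SE 0.37, adjusted p = 0.0252). Gnmt, a glycine methyltransferase that spends surplus S-adenosylmethionine, had 22.2, 8.40, 13.1 and 8.40 in WT and 35.6, 40.6, 53.4, 20.7 and 49.2 in Trail Δmye. Its groups overlapped through WT ROI 007 and Trail Δmye ROI 035, and the fold was 3.12 (log2 fold change 1.64, SE 0.39, adjusted p = 0.0426). Nnmt methylates nicotinamide. It was near the lowest count in WT, with 1, 2, 2 and 1 raw counts (2.47, 4.20, 5.25 and 2.10 after scaling) against 14.9, 16.8, 19.6, 10.9 and 12.2 scaled counts in Trail Δmye. From the summed counts, 216 against 6, the scaled ratio of Nnmt was 3.89 with a 95% interval of 1.76 to 10.7 that covers counting error only (fit: log2 fold change 2.03, SE 0.45, adjusted p = 0.0303). ROI 035, whose negative probe stood at 43.1 counts, gave 83 of the 216.

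Bhmt is a protein-coding gene on chromosome 13 (GRCm38.p6, 93616891 to 93637758), and Hpd, described next, is one on chromosome 5 (123171807 to 123182723). The 250 bases before the annotated start are shown for these because they are the amino acid and methyl-group enzymes among the 16 genes whose promoter window in the RefSeq table begins at the annotated start (5 of the 16 have one). Both are on the minus strand, at chr13:93637759-93638008 and chr5:123182724-123182973. Capitals mark the only match to any of 5 motifs searched on both strands.
Bhmt: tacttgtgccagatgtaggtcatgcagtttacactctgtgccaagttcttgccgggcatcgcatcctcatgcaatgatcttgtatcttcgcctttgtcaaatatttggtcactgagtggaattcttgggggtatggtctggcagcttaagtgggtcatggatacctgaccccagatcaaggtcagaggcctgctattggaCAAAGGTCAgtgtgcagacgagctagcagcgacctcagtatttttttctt
Hpd: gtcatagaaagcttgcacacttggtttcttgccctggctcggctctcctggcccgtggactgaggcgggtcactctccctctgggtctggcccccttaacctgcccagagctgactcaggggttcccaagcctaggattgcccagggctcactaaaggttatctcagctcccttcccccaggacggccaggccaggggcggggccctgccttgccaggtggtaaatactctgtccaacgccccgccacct
The match, to CAAAGNNCA, a core recognised by the hepatocyte factor HNF4, begins 50 bases before the Bhmt start, and 5.79% of 19827 promoter windows of this length hold one. TATAAA was found in 14.9% of all windows, TTGCNNAA (C/EBP) in 10.3%, TGACGTCA (CRE) in 1.43% and TGTTCT (a glucocorticoid receptor half-site) in 17.8%, and in neither of the windows shown. A match is a description of these letters and not a binding site.

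Another 3 of the 10 break down amino acids or their products. Hpd, which acts on the keto acid of tyrosine, stood at 9.89, 6.30, 7.88 and 2.10 in WT (4, 3, 3 and 1 raw counts) and at 21.0, 19.6, 32.0, 15.1 and 28.2 in Trail Δmye, 3.61-fold higher (log2 fold change 1.85, SE 0.44, adjusted p = 0.0345). The summed counts of Hpd, 332 against 11, gave a scaled ratio of 3.26 with an interval of 1.80 to 6.59 for counting error. Sds, which deaminates serine to pyruvate, had 7.41, 2.10, 13.1 and 8.40 (3, 1, 5 and 4 raw counts) against 32.7, 24.5, 32.9, 20.0 and 36.6, a fold of 3.88 (log2 fold change 1.96, SE 0.42, adjusted p = 0.0139). The summed counts of Sds, 427 against 13, gave a scaled ratio of 3.55 with an interval of 2.05 to 6.72 for counting error. The 2.10 of Hpd in WT ROI 013 and of Sds in WT ROI 009 lay below the negative probe of those segments. Mmut, the mitochondrial methylmalonyl-CoA mutase on the route from branched-chain amino acids to succinyl-CoA, had 37.1, 16.8, 18.4 and 23.1 against 93.3, 77.0, 53.9, 36.2 and 68.5. WT ROI 007 and Trail Δmye ROI 035 overlapped for Mmut, and the fold was 2.79 (adjusted p = 0.0325).

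Enzymes of the same pathways were counted in 4 lists written after these values were seen, so the counts describe and test nothing. Of 18 methionine cycle and methyl-group enzymes 4 were called higher and 0 lower, and their median log2 fold change was 0.43 beside 0.21 for all genes. Cth, the last step from homocysteine to cysteine, stood 0.98 higher on the log2 scale without passing the test (adjusted p = 0.379), and Mat2a, the non-hepatic form of the synthetase, 0.65 (adjusted p = 0.559). Cbs, the first step to cysteine, had -0.27 (adjusted p = 0.879). Among 22 enzymes of amino acid catabolism 3 were called higher and 0 lower, with a median of 0.69. With TMM factors 1 gene of the methionine list, Mat1a, was called, which was the only gene of all tested called higher there, and 0 of the amino acid list. After thinning 0 of either list were called. Of 7 urea cycle genes and 5 gluconeogenic genes 0 were called, with medians of 0.94 and 1.13. Close to the threshold were Arg1 of the urea cycle, which splits arginine to urea (14.7 to 44.5 in WT and 35.8 to 105 in Trail Δmye, log2 fold change 1.39, adjusted p = 0.0584), and Got1 of the amino acid list, which moves amino groups to oxaloacetate (2.10 to 12.4 and 10.2 to 23.1, log2 fold change 1.70, adjusted p = 0.0584). G6pc, which releases glucose from its phosphate, had 1.71 (adjusted p = 0.178), and Pck1, the committed step of gluconeogenesis, 1.26 (adjusted p = 0.132). The WT raw counts of G6pc were 4, 1, 1 and 2.

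Without ROI 035 the number of genes called grew to 58 (0.55% of genes), 42 higher and 16 lower, and 15 of the 16 genes were among them (Idi1 was not, adjusted p = 0.0745). Of the 52 genes in the 4 lists, 17 were then called higher and 0 lower, against 7 and 0 with all segments. Among the added calls were Arg1, Ass1 and Asl of the urea cycle (log2 fold changes 1.55, 1.28 and 1.31), Pck1, G6pc and Fbp1 of gluconeogenesis (1.48, 1.96 and 1.32), and Tat, Tdo2 and Got1 of amino acid breakdown (1.39, 1.46 and 1.92). In ROI 035 the summed level of the urea cycle list was 166.6 against 245.1 to 420.6 in the other Trail Δmye segments and 124.0 to 175.5 in WT, and that of the gluconeogenic list was 124.6 against 262.6 to 378.2 and 96.6 to 170.5. With the negative probe's count subtracted from each segment, an alternative chosen after seeing the data, 46 genes were called (28 higher and 18 lower) and all 16 were among them. When all PanCK segments were thinned to the smallest total, 3 genes were called, all lower, namely Mup13, Sftpd and the ductular gene Clu. That total, 23481, is of control-diet WT ROI 003 and lies below the 46676 to 61665 of WT on DDC. The WT segments compared here therefore lost counts too, and thinning to their own depth was not done.

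General hepatocyte markers did not pass the test. Of 10 markers on the array 0 were called, 5 had a positive and 5 a negative log2 fold change, and the median was 0.08. Their summed level was 1672 to 2879 in WT, 2046 to 3408 in the 4 other Trail Δmye segments and 975.1 in ROI 035. Ass1, Pck1 and Tat, called without ROI 035, stand in this list and in the lists above. Fabp1, the fatty acid-binding protein of hepatocytes, stood at 33.6 to 37.1 in WT and at 10.6 to 25.9 in Trail Δmye (log2 fold change -1.03, adjusted p = 0.319). The part of hepatocyte content in the enzyme differences was not tested.

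**Figure D2:**
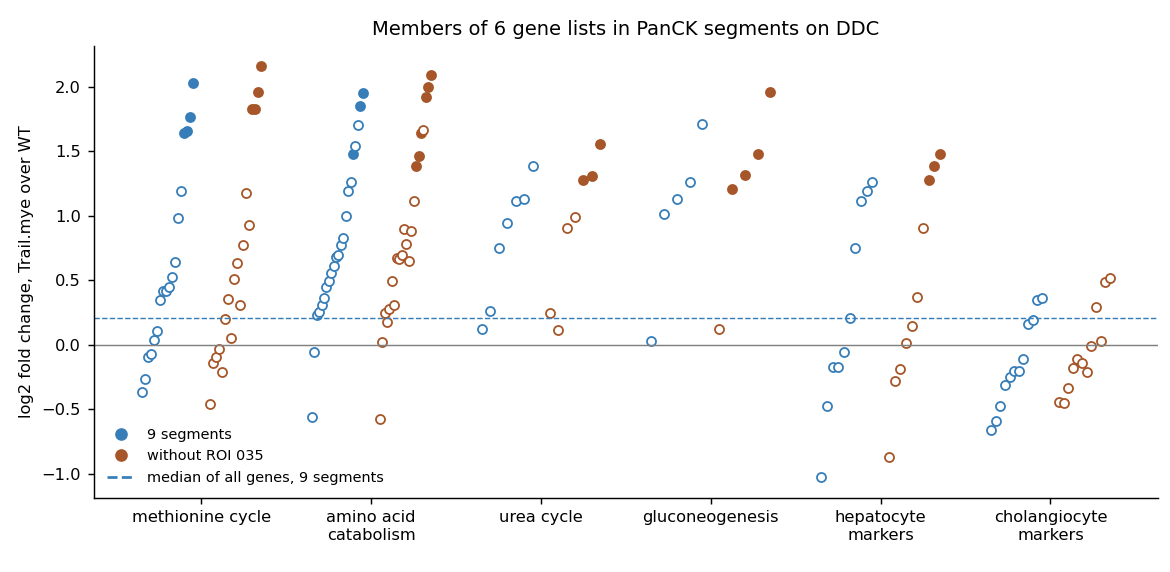
Log2 fold change (Trail Δmye over WT) of each member of 6 gene lists in PanCK segments on DDC, for all 9 segments (blue) and without ROI 035 (brown), with filled points for an adjusted p under 0.05 and the all-gene median of 0.21 as a dashed line. Filled points number 7 with all segments and are more numerous without ROI 035, all of them above 0.

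Klf10, Gstm3 and Nnt completed the genes that rose. Klf10, a zinc-finger factor induced by TGF-beta and by nutrient signals, had 1, 4, 2 and 1 raw counts in WT (2.47, 8.40, 5.25 and 2.10 after scaling) and 15.8, 19.6, 21.0, 14.6 and 27.3 scaled counts in Trail Δmye. WT ROIs 007 and 013 lay below the negative probe, and the summed counts of Klf10, 289 against 8, gave a scaled ratio of 3.90 with a 95% interval of 1.95 to 9.12 for counting error (fit: log2 fold change 2.06, SE 0.43, adjusted p = 0.0123). ROI 035, whose negative probe stood at 43.1 counts, gave 111 of the 289. Gstm3, a glutathione transferase, had 14.8, 10.5, 10.5 and 8.40 against 40, 29.4, 29.2, 23.2 and 34.0, a fold of 2.85 (adjusted p = 0.0325). Its relative Gstm1 was not called (log2 fold change 0.98, adjusted p = 0.29). Nnt, the mitochondrial transhydrogenase that makes NADPH, was held by 1, 1, 2 and 1 raw counts in WT. It stood at 12.5, 14.0, 12.8, 11.6 and 13.4 scaled counts in Trail Δmye, a tight group that lay above all WT segments (2.10 to 5.25), while the negative probe stood at 2.61 to 2.85 in WT. The summed counts of Nnt, 199 against 5, gave a scaled ratio of 4.30 with a 95% interval of 1.81 to 13.4 for counting error (fit: log2 fold change 2.11, SE 0.46, adjusted p = 0.0303). Of the 199 counts, 88 came from ROI 035. On control diet the PanCK raw counts of Nnt were 1, 1 and 1 in WT and 3, 6, 3 and 2 in Trail Δmye. After scaling these were 3.50 to 5.25 and 4.20 to 15.8. In the IBA1 segments of the DDC-fed ROIs Nnt was at 1 raw count in every WT segment and at 10 to 36 in Trail Δmye. C57BL/6J carries a deletion in Nnt that C57BL/6N lacks, and no source used here gives the substrain of the WT mice.

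Mup13 had the lowest adjusted p and the largest fall. It encodes a major urinary protein of the hepatocyte, one of a cluster of nearly identical genes on chromosome 4 (Mup13 at 61224308 to 61228252, GRCm38.p6), so that its probe may also read its neighbours. Its Q3-normalized counts were 109, 81.9, 94.5 and 52.5 in WT and 30.7, 18.9, 11.9, 8.53 and 9.66 in Trail Δmye. Every Trail Δmye segment lay below every WT segment, and the fall was 5.28-fold (log2 fold change -2.40, SE 0.34, adjusted p = 1.23e-06). It was called with any segment left out, with adjusted p between 6.81e-09 and 0.000241, but Mup13 was not called by the unpaired two-group test that the methods name (adjusted p = 0.0696). On control diet the same gene averaged 3085 ± 841 (SD, n = 3) in WT and 831 ± 149 (SD, n = 4) in Trail Δmye PanCK segments. The 2 groups thus already differed there (log2 fold change -1.89, SE 0.33, adjusted p = 0.000177). The group difference on DDC was not shown to be another (interaction -0.51, SE 0.46, adjusted p = 1). Mup13 is a male-biased liver gene, and the control-diet groups also differed in the Y-linked transcript Gm21783 (means of 110 in WT and 3.76 in Trail Δmye). The part of sex in the control-diet and interaction values of Mup13 was not tested. For Mup13 the IBA1 segments of the DDC-fed ROIs gave -2.67 (SE 0.39, adjusted p = 0.0001).

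The other 5 genes that fell have varied roles. Sftpd, surfactant protein D, a secreted collectin of epithelia, had 44.5, 44.1, 52.5 and 44.1 in WT and 25.0, 25.2, 15.1, 14.3 and 17.2 in Trail Δmye, a fall of 2.40-fold (log2 fold change -1.26, SE 0.27, adjusted p = 0.014). Fabp5, an epidermal-type fatty acid-binding protein, had 61.8, 69.3, 70.9 and 67.2 against 36.0, 30.1, 28.3, 14.0 and 34.9 (2.36-fold lower, adjusted p = 0.0325). These WT segments lay close together and clear of all Trail Δmye segments for both genes. Idi1, the isopentenyl diphosphate isomerase of sterol synthesis, had 12.4, 18.9, 15.8 and 18.9 against 9.70, 9.80, 4.57, 5.25 and 4.62 (2.58-fold lower, adjusted p = 0.0325), and its level in ROI 035 lay below that segment's negative probe. Mid1, a ubiquitin ligase bound to microtubules and encoded on chromosome X, had 32.1, 12.6, 15.8 and 37.8 against 8.48, 8.40, 5.94, 9.32 and 10.1 (2.80-fold lower, adjusted p = 0.00372). Its WT segments were spread over a wide range while the Trail Δmye segments were not. Sdr39u1, a short-chain dehydrogenase, had 22.2, 14.7, 10.5 and 23.1 against 4.04, 7.00, 5.94, 7.09 and 4.62 (2.93-fold lower, adjusted p = 0.00848). Tuba1a, an alpha-tubulin, came close to the threshold with 15.8 to 32.1 against 5.46 to 11.9 (log2 fold change -1.18, adjusted p = 0.057), and was called without ROI 035 (-1.31, adjusted p = 0.0137).

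Genes that attract myeloid cells were examined because ductular cells are known to secrete them. Of 18 chemoattractant and cytokine genes measured 0 were called, 3 had an unadjusted p under 0.05 with Trail Δmye higher and 0 with it lower, and the median log2 fold change was 0.38. Over all genes 7.25% were higher and 1.98% lower at that level. Cxcl5, a neutrophil chemokine, stood at 9.89, 8.40, 5.25 and 18.9 in WT and at 47.3, 32.9, 25.1, 12.2 and 19.7 in Trail Δmye. ROI 035 fell inside the WT range and the other 4 above it (log2 fold change 1.30, SE 0.38, adjusted p = 0.182), and without ROI 035 Cxcl5 was called (1.53, adjusted p = 0.00909). S100a9, a calcium-binding alarmin of neutrophils and injured epithelium, had 12.4, 2.10, 5.25 and 4.20 against 29.9, 20.3, 12.8, 12.2 and 15.5 (log2 fold change 1.61, SE 0.42, adjusted p = 0.083) and was likewise called without ROI 035 (1.77, adjusted p = 0.0137). Its partner S100a8 had 7.41, 6.30, 2.63 and 4.20 against 28.7, 14.0, 9.13, 6.83 and 11.8 (log2 fold change 1.34, SE 0.46, adjusted p = 0.316). ROI 032 was the highest segment for Cxcl5, S100a8, S100a9 and Cxcl1. Cxcl1, another neutrophil chemokine, ranged from 2.47 to 8.40 in WT and from 3.78 to 27.9 in Trail Δmye (log2 fold change 0.88, SE 0.48, adjusted p = 0.576). The WT raw counts were 4, 4, 2 and 9 for Cxcl5 and 5, 1, 2 and 2 for S100a9. For S100a8 they were 3, 3, 1 and 2, and for Cxcl1 1, 4, 2 and 4. The lowest WT value of S100a9, of S100a8 and of Cxcl1 lay below the negative probe of its segment. The monocyte chemokine Ccl2 (0.26), the fractalkine gene Cx3cl1 (0.19) and Tnf (0.55) lay within the spread between segments, with adjusted p of 0.86, 0.95 and 0.74, and Cx3cl1 turned to -0.06 with TMM factors.

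**Figure D3:**
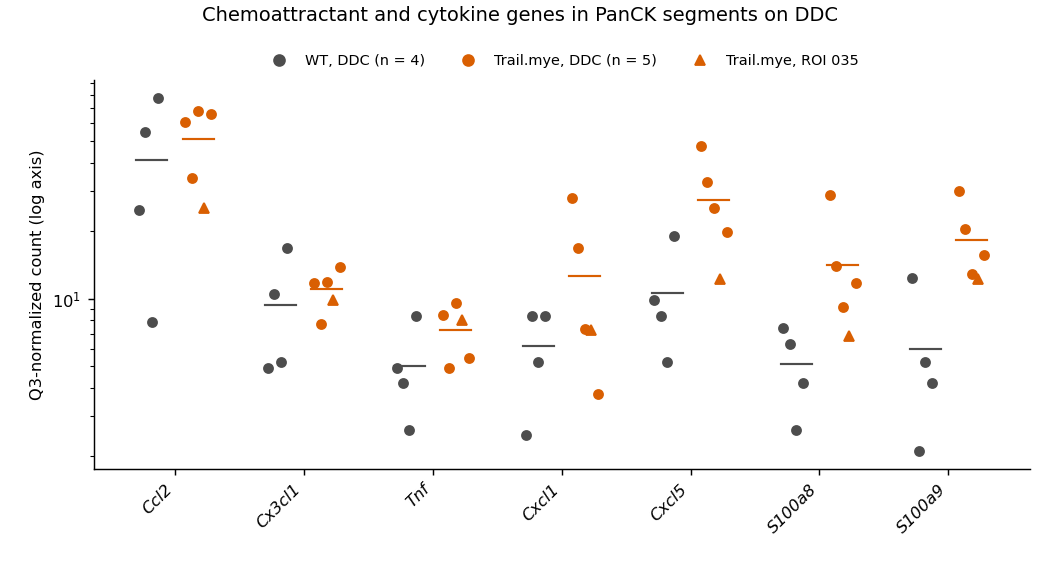
Q3-normalized counts (log axis) of 7 chemoattractant and cytokine genes in each PanCK segment on DDC, 4 WT (grey) and 5 Trail Δmye (orange, ROI 035 as a triangle), with a bar at the group mean. Trail Δmye ROI 035 lies in the WT range for Cxcl5 and just below the highest WT segment for S100a8 and S100a9, and Ccl2, Cx3cl1 and Tnf overlap throughout.

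Neutrophil markers were examined beside these genes. All 5 measured (of 12 listed) had a positive log2 fold change, with a median of 1.06, and 0 were called. Their summed level was 14.7 to 27.2 in WT and 37.0 to 73.5 in Trail Δmye, highest in ROI 032, and 2 of the 5 were at 1 count in every WT segment. S100a8 and S100a9 belong to this list too, and the part of neutrophils in the chemoattractant values was not tested. Of 12 macrophage markers 0 were called, with a median of 0.09 and summed levels of 128.2 to 170.7 in WT and 116.8 to 172.2 in Trail Δmye. C1qa, a complement gene of resident macrophages, had -0.15 on the log2 scale (adjusted p = 0.952), Clec4f, the Kupffer cell lectin, -0.83 (adjusted p = 0.58), and Cd68 -0.55 (adjusted p = 0.63). Lyz2, whose promoter drives the Cre, had -0.28 (adjusted p = 0.97) at levels near the negative probe. Of 8 endothelial and 5 lymphocyte or plasma cell markers 0 were called, with medians of 0.45 and 0.30. Kdr (0.99) and Ptprb (1.51) came nearest among the endothelial genes, with adjusted p of 0.583 and 0.316, and Igha (0.69) and Igkc (0.44) among the others, with adjusted p of 0.812 and 0.91. In WT, Kdr was at 1 count in every segment and Ptprb at 1, 1, 1 and 2 counts.

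The TRAIL pathway within the epithelium showed no called member. Tnfsf10 was not analysed here. The receptor gene Tnfrsf10b ranged from 2.63 to 14.7 in WT and from 4.11 to 9.72 in Trail Δmye (log2 fold change -0.11, SE 0.38). Casp8, the initiator caspase below it, had 0.35 (adjusted p = 0.85), Casp6, an executioner, 0.75 (adjusted p = 0.61) and Apaf1, the scaffold of the apoptosome, 1.21 (adjusted p = 0.417, and -0.18 in the thinned segments). Of the 24 genes of this list 17 had a positive log2 fold change, 1 had an unadjusted p under 0.05, and the median of 0.34 became -0.01 in the thinned segments. Most other lists also had a lower median after thinning, such as macrophage markers (0.09 to -0.23) and cell cycle genes (0.10 to -0.12). That of the male-biased genes rose (-0.09 to -0.05). In the NF-kB list of 19 genes 14 were positive and 0 called, with a median of 0.49. Rela, the transactivating subunit, stood at 2.47 to 6.30 in WT and at 9.10 to 14.2 in Trail Δmye (log2 fold change 1.37, SE 0.41, adjusted p = 0.296), and Relb, a subunit of the non-canonical route, had 0.96 (adjusted p = 0.36). The WT raw counts of Rela were 1, 3, 2 and 2. Of 24 antigen presentation and interferon genes 17 were positive and 0 called, with a median of 0.21 beside 0.21 for all genes. H2-Aa, a class II chain, had 1.04 (adjusted p = 0.32) and was called without ROI 035 (1.23, adjusted p = 0.042). Ifit3, an interferon-induced gene, was at 1 count in all WT segments and had 1.51 (adjusted p = 0.355).

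No gene of the biliary and scar lists was called with all segments. Of 12 cholangiocyte markers 0 were called, 4 were positive, and the median was -0.20. Their summed level was 1744 to 2332 in WT, 1423 to 1767 in the 4 other Trail Δmye segments and 624.1 in ROI 035. Spp1, osteopontin, a cytokine of ductular cells, stood at 1565, 1345, 1878 and 1460 in WT and at 1318, 1134, 1096, 344 and 970 in Trail Δmye. All Trail Δmye segments lay below all WT segments, yet the test was not passed with all segments (log2 fold change -0.66, SE 0.28, adjusted p = 0.45) nor without ROI 035 (-0.45, adjusted p = 0.497). Clu, clusterin, also had all Trail Δmye segments below all WT segments, with 1935 to 2718 against 471 to 1676 (log2 fold change -0.70, adjusted p = 0.426), and of its 19 alternatives only the thinned segments called it (-0.86, adjusted p = 0.0304). Sox9, the biliary progenitor factor, had -0.59 (adjusted p = 0.53). In the ductular reaction list of 22 genes 5 were lower and 0 higher at an unadjusted p under 0.05, and 0 were called (median -0.20). Over all genes 1.98% were lower and 7.25% higher at that level. Of 24 epithelial cytoskeleton and junction genes 4 were lower at that level and 0 called (median -0.25), with Tuba1a and Tuba1b (-1.01, adjusted p = 0.132) the nearest. The matrix and fibrosis list of 25 genes had 4 lower, 0 called and a median of -0.17, and the list of 12 fibroblast and stellate cell markers had 3 lower, 0 called and a median of -0.43. Both lists hold Col1a1 and Col3a1, which are counted as lower in each. Col1a1 and Col3a1, the fibrillar collagens of scar, had log2 fold changes of -0.85 and -0.80 (adjusted p = 0.32 and 0.36), and Sparc, a matrix-binding glycoprotein, -0.34 (adjusted p = 0.75). Rgs5, a pericyte gene, had -0.82 (adjusted p = 0.34), Col5a2 -0.90 (adjusted p = 0.32, and -1.18 with adjusted p = 0.0396 without ROI 035), and Ccn2, connective tissue growth factor, of the ductular list, -0.87 (adjusted p = 0.27). Of 13 cell cycle genes 0 were called (median 0.10), among them Ccnd1 at -0.83 (adjusted p = 0.32) and Mcm2 at -0.92 (adjusted p = 0.43).

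Lists tied to the injury and to liver function gave no further calls. Among 20 heme synthesis and oxidative stress genes 4 were higher at an unadjusted p under 0.05, as were 7.25% of all genes, and 0 were called (median 0.27). Mt1, a metallothionein, had 0.92 (adjusted p = 0.32) and was called without ROI 035 (1.11, adjusted p = 0.00905), as was Gstm1 (1.12, adjusted p = 0.00599). Of 22 bile acid synthesis and transport genes 0 were called (median 0.27), with the sterol exporter Abcg5 at 1.45 (adjusted p = 0.335) and the uptake carrier Slco1b2 at -1.04 (adjusted p = 0.335). Abcg5 was at 2, 1, 1 and 1 raw counts in WT. Of 19 acute phase and complement genes 0 were called (median 0.15), Itih3 the nearest at 1.20 (adjusted p = 0.27), and Itih3 was called without ROI 035 (1.38, adjusted p = 0.0306). Steap4, a metalloreductase of the same list, had 0.74 (adjusted p = 0.581). Of 16 cytochrome P450 genes 0 were called (median 0.06), with Cyp2c29 at -0.83 (adjusted p = 0.32) and Cyp3a25 at 0.97 (adjusted p = 0.45).

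Genes that differ by sex were looked at because the control-diet groups differed in them. On DDC the Y-linked multicopy transcript Gm21783 stood at 86.5, 50.4, 39.4 and 56.7 in WT and at 61.0, 59.5, 47.5, 22.1 and 45.4 in Trail Δmye (log2 fold change -0.30, adjusted p = 0.812). On control diet it averaged 110 ± 14.6 (SD, n = 3) in WT and 3.76 ± 1.74 (SD, n = 4) in Trail Δmye, near the level of 1 count. Of 4 Y-linked transcripts 0 were called on DDC, Ddx3y among them (0.55, adjusted p = 0.75). Of 8 male-biased liver genes 1, Mup13, was called lower (median -0.09), with Cyp2u1 at 0.54 (adjusted p = 0.78). Of 9 female-biased genes 0 were called (median 0.28). Cyp2a4, a female-biased hydroxylase, had 6.30 to 13.1 in WT and 14.6 to 32.9 in Trail Δmye (log2 fold change 1.52, adjusted p = 0.0874) and was called without ROI 035 (1.70, adjusted p = 0.00344), the 1 call of its list there. Cyp3a41a had 0.79 (adjusted p = 0.57). Of 3 genes checked for strain or allele, Nnt was called, and Wdfy1 (0.69, adjusted p = 0.70) was not.

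The genotype difference on DDC was then set beside that on control diet. There 23 genes were called (0.218% of genes), and 2 of the 16, Mup13 and Bhmt, were among them. Bhmt was opposite in direction. It averaged 109 ± 16 (SD, n = 3) in WT and 32.1 ± 12.4 (SD, n = 4) in Trail Δmye on control diet (log2 fold change -1.79, SE 0.40, adjusted p = 0.0101), against 15.6 ± 4.49 (SD, n = 4) and 49.2 ± 15.8 (SD, n = 5) on DDC, and the difference between the diets was called (3.45, SE 0.54, adjusted p = 2.95e-05). In all 12 genes passed that interaction test (0.114% of genes), and Bhmt was the one of the 16 among them. For the other 15 genes a difference between diets was therefore not shown. Klf10 (3.23, adjusted p = 0.147), Idi1 (-2.42, adjusted p = 0.207) and Gnmt (1.96, adjusted p = 0.491) came nearest. The control-diet groups also differed in Y-linked transcripts, as given above, and the part of sex in the control-diet and diet-interaction values was not tested.

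In the IBA1 segments of the same DDC-fed ROIs 2 genes were called (0.019% of genes), Mup13 and Abcd2, a peroxisomal fatty acid transporter. The Abcd2 call rested on WT ROI 009, at 116 against 3.50 to 5.25 in the other IBA1 segments, and without that segment 1 gene was called. Abcd2 had -2.59 (adjusted p = 0.021) with it and -0.29 in the PanCK segments. Total counts were 20319 to 34302 in the WT and 158219 to 568719 in the Trail Δmye IBA1 segments, so the depth gap was there too. Mat1a averaged 32.0 and 109 in WT and Trail Δmye IBA1 segments, with a log2 fold change of 1.74 (SE 0.40, adjusted p = 0.23) close to the 1.77 of the PanCK segments. Trail Δmye means in IBA1 and PanCK segments were 62.8 and 49.2 for Bhmt, 75.4 and 64.9 for Arg1 and 106 and 81.4 for Ass1. The IBA1 log2 fold changes of Bhmt, Arg1 and Ass1 were 0.75, 1.22 and 1.27, and none of them was called. Mmut went the other way, with 13.8 to 18.6 in Trail Δmye IBA1 and 36.2 to 93.3 in Trail Δmye PanCK segments. Sftpd and Fabp5 had -0.40 and -0.24 in IBA1 against -1.26 and -1.24 in PanCK segments. Sftpd was at 1, 1, 1 and 2 raw counts in the WT IBA1 segments, so a fall could hardly show there. Whether the genotype difference itself differed between segment types was tested with the ROI as a block, and edgeR called 0 genes (0% of genes, with 350 at an unadjusted p under 0.05), DESeq2 13, TMM factors 3. None of the 16 genes was thus shown to differ between the epithelial and the macrophage segment in the edgeR fit.

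**Figure D4:**
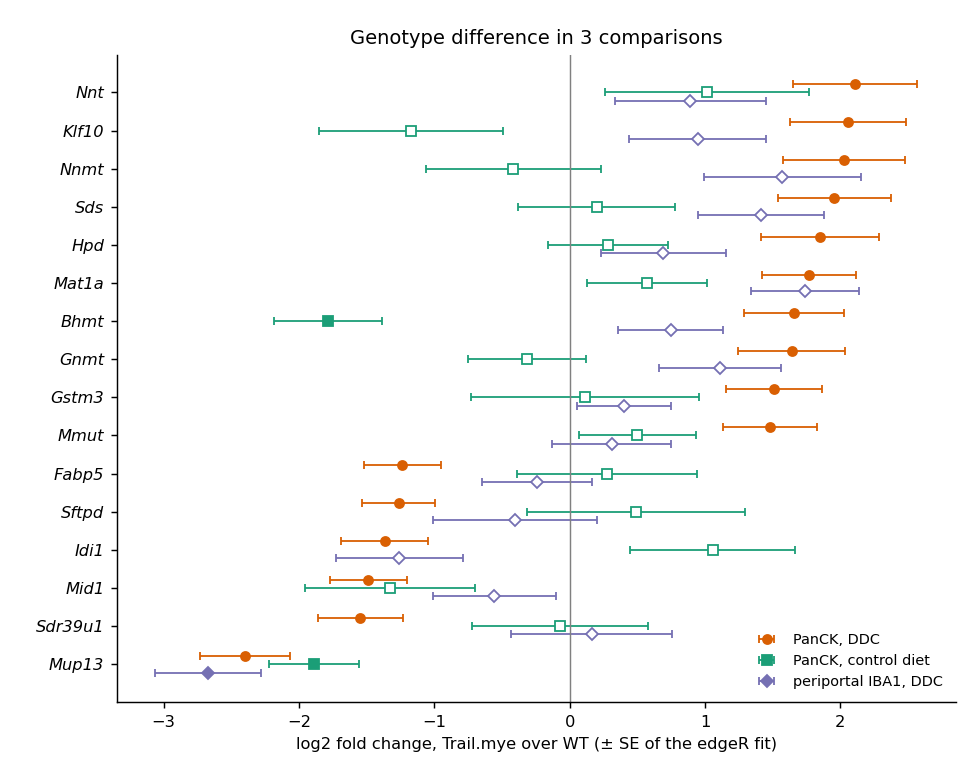
Log2 fold change (Trail Δmye over WT, ± SE of the edgeR fit) of the 16 genes in PanCK segments on DDC (orange circles), PanCK segments on control diet (green squares) and periportal IBA1 segments on DDC (purple diamonds), filled where the adjusted p was under 0.05. Mup13 is filled and below 0 in all 3 comparisons, and Bhmt is filled on opposite sides of 0 in PanCK segments on DDC (1.66) and on control diet (-1.79).

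The size of the list rested on single segments. Leaving out WT ROI 013 left 1 gene, Mup13, leaving out ROI 007 left 2 (Mup13 and Mat1a) and leaving out ROI 009 left 4 (Klf10, Mid1, Mup13 and Sdr39u1), while leaving out Trail Δmye ROI 036 left 10 and ROI 035 raised the count to 58. The lines drawn in the volcano plots of the study, which compare diets within a genotype, are an unadjusted p under 0.05 with a log2 fold change beyond 1 in either direction. In the genotype comparison they passed 594 genes, 558 of them higher and 36 lower in Trail Δmye.

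**Figure D5:**
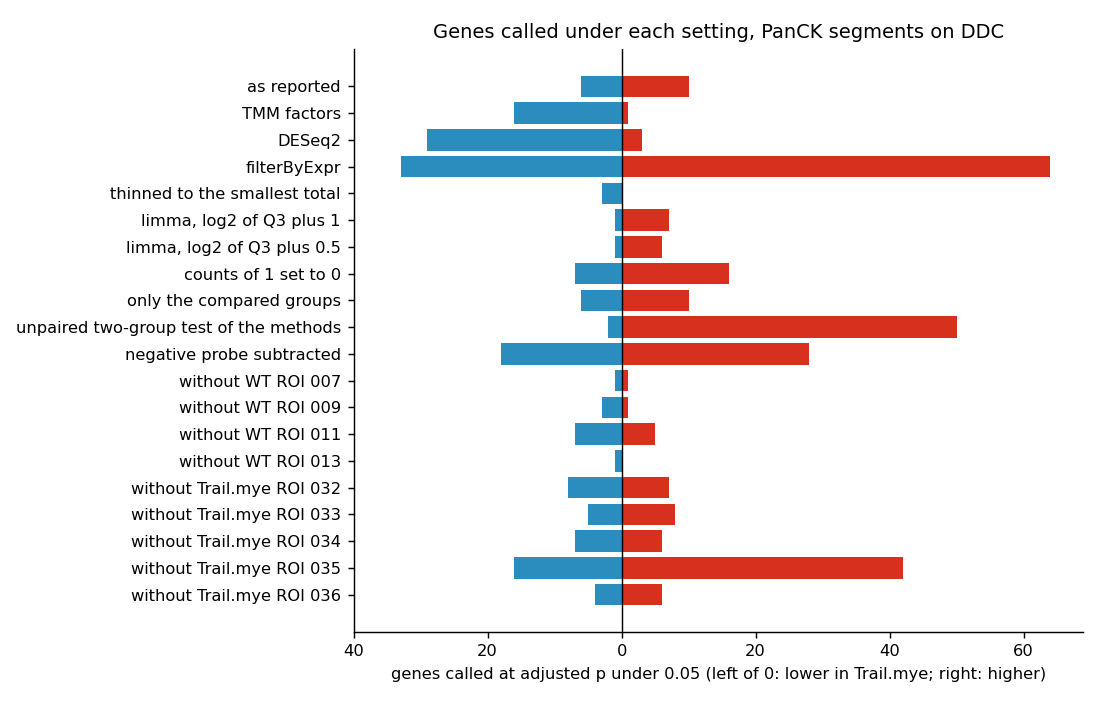
Number of genes called at an adjusted p under 0.05 in PanCK segments on DDC under each setting, with genes higher in Trail Δmye to the right of 0 and genes lower to the left. The count runs from 1 without WT ROI 013 to 97 after a filter on low counts, and the share of higher genes changes with the scaling (10 of 16 as reported, 1 of 17 with TMM factors, 3 of 32 with DESeq2).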

How the data were processed

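NanoString GeoMx spatial profiling with mouse Whole Transcriptome Atlas probes was run on FFPE liver sections, with segments cut by PanCK and IBA1 staining. The deposited expected counts (non-whole for 3 genes and the negative probe) were rounded. The authors also deposited Q3-normalized signal, which equals the counts times 1 factor per segment. bcl2fastq and mm10 come from the submitters' processing notes. Genes were tested with edgeR 4.0.16 (R 4.3.3), quasi-likelihood with upper-quartile factors, over 16 PanCK segments in 4 groups without covariates, with Benjamini-Hochberg adjustment over 10547 genes. DESeq2 1.42.0, limma 3.58.1, TMM factors, a low-count filter, thinning, pseudocounts of 1 and 0.5 and the unpaired two-group test that the methods name were alternatives. Counts below 1 after thinning were set to 1. Named genes were the 10 largest called changes each way among genes with non-overlapping segments, the 5 highest by level, genes the study names, marker checks, and the leading members of 23 lists. Further genes and 4 lists were added after values were seen. Members and lists were chosen with earlier results of these data known. On simulated data without added background the test was checked before use. Changes were placed only in genes with at least 3 expected counts at the smallest total, so genes nearer the lowest count were not covered. Symbols matched RefSeq (GRCm38.p6) for 10512 genes. Counting intervals (95%) cover counting error only.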

Additional observations from a re-analysis of the deposited data

Results flagged for a closer look

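Of 232 group values checked for a segment far from the others, 20 had one, and 11.6 would be met by chance at 1 in 20. Of these, 5 lay in Trail Δmye ROI 035. Its total was 836971 against 172180 to 319206, its summed bile acid list 187 against 149 to 154, Asl 14.6 against 25.9 to 29.2, Got1 10.2 against 21.0 to 23.1 and Kdr 6.70 against 3.36 to 4.20 Q3-normalized counts. Among the other Trail Δmye segments the summed neutrophil markers stood at 73.5 in ROI 032 against 37.0 to 44.8, Ddx3y at 4.90 in ROI 033 against 7.62 to 8.40, and Igha at 13.4 in ROI 036 against 3.50 to 6.30.

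In WT ROI 007 Mat1a stood at 39.5 against 21.0 to 23.1 and the summed methionine cycle list at 242 against 181 to 185. In WT ROI 009 the summed fibroblast markers were 420 against 592 to 623, the summed matrix list 485 against 739 to 762 and Mat2a 6.30 against 16.8 to 18.4. In WT ROI 011 Cyp3a25 was 13.1 against 4.94 to 6.30, Nnt 5.25 against 2.10 to 2.47 and Sftpd 52.5 against 44.1 to 44.5. In WT ROI 013 Casp8 was 21.0 against 2.10 to 5.25, Steap4 10.5 against 4.20 to 5.25, Wdfy1 10.5 against 2.10 to 2.63 and Apaf1 6.30 against 2.10 to 2.63, values of a few counts each.

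The difference between the Trail Δmye and WT groups changed between diets for Bhmt (3.45 on the log2 scale, edgeR adjusted p = 2.95e-05) and for the Y-linked Gm21783 (4.46, adjusted p = 5.56e-06). Gm21783 was near 1 count only in the control-diet Trail Δmye group, and the part of sex in both values was not tested.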

How the results depend on the processing

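The 16 calls on DDC became 32 with DESeq2, 97 after the low-count filter (64 higher and 33 lower, among them the 10 of the 16 that passed the filter), 3 after thinning, 8 and 7 with limma at pseudocounts of 1 and 0.5, 52 with the unpaired two-group test (3 of the 16 among them, Gstm3, Nnmt and Nnt, and not Mup13), 594 at the volcano thresholds and 46 with the negative probe subtracted. Leaving out 1 segment gave 1 to 58 calls. The 23 calls on control diet became 15 with DESeq2 and 13 to 22 with a segment left out. The 12 diet interactions became 2 with DESeq2, 3 after thinning, 26 and 24 with limma and 6 to 14 with a segment left out. The 2 IBA1 calls became 1 with DESeq2, 1 after thinning and 1 to 2 with a segment left out. The segment interaction, fitted with the ROI as the pairing block, gave 0 calls, 3 with TMM factors, 13 with DESeq2 and 0 to 1 with an ROI left out, and 0 without the block (246 at an unadjusted p under 0.05). Deviations of the PanCK and IBA1 segments of an ROI correlated at -0.01 to 0.57 over 7585 genes (median 0.06). The cause of these moves was not tested.

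None of the 16 called genes turned its direction. Among 88 named genes 11 did, in 20 cases, all far from the threshold. Abcd2 was 0.36 after thinning and 0.075 with counts of 1 set to 0, Apaf1 -0.18 and Ccl2 -0.13 after thinning, Cx3cl1 -0.064 with TMM factors and -0.080 with DESeq2, and Alb 0.010, C1qa 0.017 and Krt19 0.052 after the low-count filter. With 1 segment left out, Abcd2 ran from -0.59 to 0.042, Alb from -0.26 to 0.15, Ccl2 from -0.051 to 0.77, Cx3cl1 from -0.032 to 0.64, Epcam from -0.39 to 0.0056, Igkc from -0.00046 to 0.60, Lyz2 from -0.47 to 0.027 and Tnfrsf10b from -0.37 to 0.42. The low WT depth limits what can be seen in genes near 1 count.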
